A study of Mus musculus with 12 samples.

Results

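The 9 complement genes described here were C1qa, C1qb and C1qc, which encode the chains of C1q, the components C3 and C6, factor B (Cfb), properdin (Cfp), and the anaphylatoxin receptors C3ar1 and C5ar1. They were chosen by name, with earlier results of these data known, as 9 of the 31053 genes measured. All 9 were detected in both data sets. Single cell RNA sequencing on the 10x platform counted molecules as unique molecular identifiers (UMIs) in cells from spontaneous breast tumors of MMTV-PyMT mice, a model in which the mammary tumor virus promoter drives the polyoma middle T oncogene in mammary epithelium. All mice carried this transgene and received no further treatment, and they were either PyMT-PAR2 WT or PyMT-PAR2 G37I, the latter with a PAR2 (F2rl1) that resists signaling by coagulation factor Xa. Cells were enriched with CD11c beads from late-stage tumors, which collects macrophages and dendritic cells (DCs), or with CD4/CD8 beads from mid-size tumors, which collects T cells. There were 3 samples per genotype and selection, 12 in all. The methods give a usual age at sacrifice for mice of this model, when tumors had reached their largest permitted size, but neither they nor the labels give the age of each sequenced sample.

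Cell barcodes in the 2 deposited matrices did not name the sample, so each matrix was treated as 1 sample. No genotype comparison was made and no test was run, and the 95% intervals given are for counting error only. Each matrix holds 6 stretches of alphabetically ordered barcodes, called runs here. The runs were not linked to samples or genotypes, and the range over runs is given as a description of spread. After cells with fewer than 200 detected genes were left out, 11639 CD11c-selected and 22806 CD4/CD8-selected cells remained, with 123642015 and 135965765 UMIs and a median of 7943 and 4361 UMIs per cell. Runs held between 13314063 and 24231244 UMIs in the CD11c-selected cells and between 16203038 and 30168668 in the CD4/CD8-selected cells. Run 4 of the CD11c-selected cells stood apart, with 360 cells but 13314063 UMIs. Repeated barcodes numbered 76 and 51 within the matrices, and 92 barcodes were found in both.

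Complement is a cascade of plasma proteins that tags cells and debris for clearance. C1q recognizes antibody complexes and dying cells and opens the classical pathway, C3 is the component on which all pathways meet, and factor B and properdin drive and stabilize the alternative pathway that amplifies C3 cleavage. C6 belongs to the terminal components that build the membrane attack complex. The fragments C3a and C5a are sensed by the receptors encoded by C3ar1 and C5ar1 on myeloid cells. Liver is the main source of most plasma components, whereas C1q is made largely by tissue macrophages.

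Cells were gated on raw marker UMIs, and no complement gene was among the markers. Macrophages (with Adgre1, Csf1r, Fcgr1 and Mertk among the markers) were divided into cells with Lyve1, Cd209f and Cd209g, cells with Gpnmb, Atp6v0d2 and Htr2b, cells with Il10 and Gdf15, cells with Thbs1 and Vegfa, and cells with Tmem119, Zmynd15 and Tlr12. Macrophages that passed several or none of these gates were kept apart. Cells that passed a DC gate and the macrophage gate were left out. Monocytes and Retnla/Ear2 cells that also passed the macrophage gate stayed in their own gates. The defining markers were present in the gates, for example Lyve1 at 409 UMIs per 1000000 UMIs (CPM) and Cd209f at 915 CPM in Lyve1/Cd209f macrophages, Retnla at 9782 CPM in Retnla/Ear2 myeloid cells, S100a9 at 16338 CPM in neutrophils, Col3a1 at 15268 CPM in fibroblasts and Krt8 at 4661 CPM in tumor cells. Because cells were gated on these markers, their presence is no separate check of the gates. The neutrophil marker Retnlg was low in the neutrophil gate, at 18.1 CPM from 7 UMIs. In the CD11c-selected matrix 7248 cells (62.3%) fell into a gate, and in the CD4/CD8-selected matrix 20056 (87.9%) did. CD11c-selected cells had 202 CPM of Itgax, which encodes CD11c, and 2.29 CPM of Cd8a, against 30.5 and 433 CPM in the CD4/CD8-selected cells. A level in a gate is the sum of a gene's UMIs over the sum of all UMIs of its cells. Counts of this chemistry come from one end of the transcript, and levels of different genes are not ranked against each other.

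On mouse genome GRCm38 the genes for the C1q chains lie side by side on the minus strand, C1qb at chr4:136880129-136886187, C1qc at chr4:136889804-136893065 and C1qa at chr4:136895917-136898803. The other members were at chr17:57203970-57228136 (C3, minus strand), chr15:4727175-4814967 (C6, plus strand), chr17:34856374-34862518 (Cfb, minus), chrX:20925454-20931555 (Cfp, minus), chr6:122847138-122856161 (C3ar1, minus) and chr7:16246743-16259540 (C5ar1, minus). All are protein-coding genes. Promoters from RefSeq (GRCm38.p6), from 250 bases before to 50 bases after the start, matched 7 of the 9 members. They were searched on both strands for TGCTGA, a half-site of the MAF family of factors, and for GAGGAA, a core of the myeloid factor PU.1. TGCTGA was found in 6401 of 32851 promoters (19.5%) and GAGGAA in 9289 (28.3%). The promoters of 2 C1q chains that moved together across gates and of the fibroblast-expressed C3 are shown to compare what lies ahead of them, 5′ to 3′ on the gene's strand, with capitals for either match or its reverse complement. They lie at chr4:136886151-136886450 (C1qb), chr4:136892865-136893164 (C1qc) and chr17:57228087-57228386 (C3), all on the minus strand.
C1qb: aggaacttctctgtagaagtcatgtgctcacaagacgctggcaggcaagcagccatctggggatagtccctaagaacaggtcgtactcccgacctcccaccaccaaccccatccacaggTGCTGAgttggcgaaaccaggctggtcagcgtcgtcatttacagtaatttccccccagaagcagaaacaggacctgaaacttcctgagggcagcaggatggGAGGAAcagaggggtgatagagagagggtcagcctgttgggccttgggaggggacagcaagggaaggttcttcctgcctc
C1qc: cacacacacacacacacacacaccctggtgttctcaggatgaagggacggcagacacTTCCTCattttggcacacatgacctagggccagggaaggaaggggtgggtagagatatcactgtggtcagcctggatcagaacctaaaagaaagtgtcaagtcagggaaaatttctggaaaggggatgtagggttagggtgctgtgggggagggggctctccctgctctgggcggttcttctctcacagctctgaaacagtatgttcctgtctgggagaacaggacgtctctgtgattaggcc
C3: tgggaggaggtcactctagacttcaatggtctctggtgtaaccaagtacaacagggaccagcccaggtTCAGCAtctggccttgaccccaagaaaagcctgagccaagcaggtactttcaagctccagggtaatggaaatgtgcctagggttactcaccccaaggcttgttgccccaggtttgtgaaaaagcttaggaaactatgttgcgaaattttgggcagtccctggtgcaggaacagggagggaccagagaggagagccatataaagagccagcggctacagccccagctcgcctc
C1qb held 1 match of each motif, C1qc held 1 GAGGAA on the opposite strand and no TGCTGA, and C3 held 1 TGCTGA on the opposite strand and no GAGGAA. Of the other members, C3ar1 and C5ar1 each held 1 TGCTGA, Cfp held 2 GAGGAA matches and C6 held neither. The matches describe letters in these windows and no binding was measured.

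**Figure D1:**
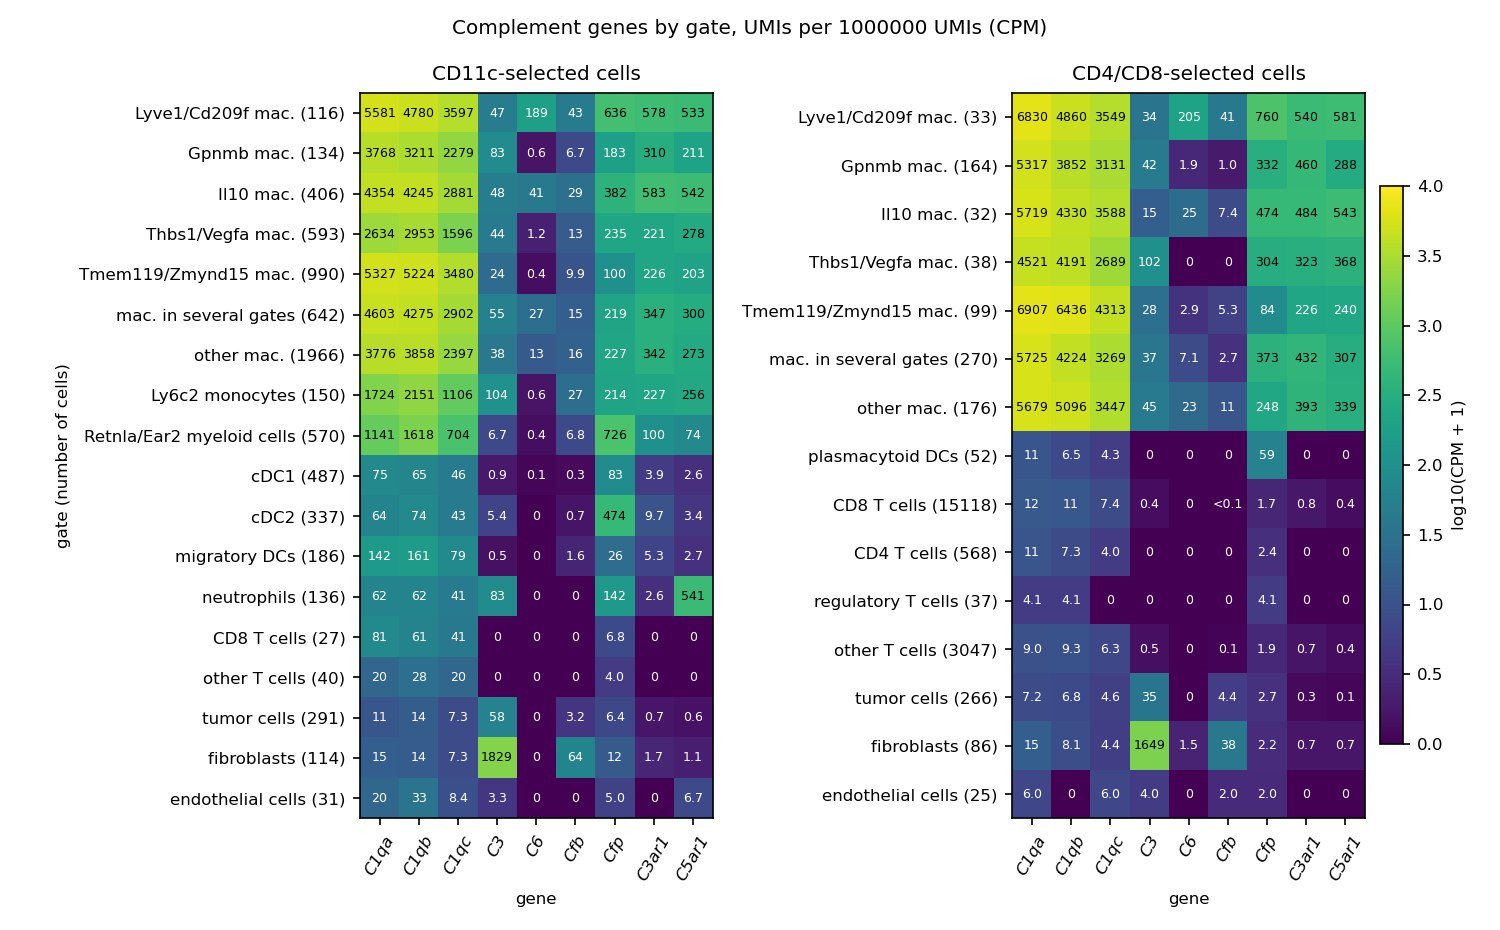
Heat map of CPM for the 9 genes (columns) in each gate (rows, number of cells in parentheses) of CD11c-selected cells (left) and CD4/CD8-selected cells (right). Color gives log10(CPM + 1) and the printed number gives CPM. The C1q chains are high throughout the macrophage gates, C3 reaches 1829 and 1649 CPM in fibroblasts, and C5ar1 is at 541 CPM in neutrophils with C3ar1 at 2.6.

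Among the cells captured, the C1q chains were mainly macrophage transcripts. Macrophages made up 41.6% of the kept CD11c-selected cells and fibroblasts 0.979%. Shares of UMIs, here and below, therefore describe the bead-selected cells and not the whole tumor. Summed over C1qa, C1qb and C1qc, the 4847 macrophages of the CD11c-selected cells had 11189 CPM (95% interval 11162 to 11216), and they held 79.9% of all C1q UMIs in that matrix. Over the 6 runs the macrophage level was lowest at 9335, with a median of 11066 and a highest value of 13686 CPM, the last in run 4. Monocytes and Retnla/Ear2 myeloid cells were lower than every macrophage gate, and among the DC, lymphoid, tumor and stromal gates the highest level was 383 CPM, in migratory DCs.

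Among the macrophage gates, Tmem119/Zmynd15 macrophages (990 cells) had 14031 CPM of summed C1q (13970 to 14093) and Lyve1/Cd209f macrophages (116 cells) had 13958 CPM (13751 to 14167), and these intervals overlapped. Il10 macrophages (406 cells) had 11480 CPM (11375 to 11585) and Gpnmb macrophages (134 cells) had 9258 CPM (9155 to 9363). Thbs1/Vegfa macrophages (593 cells) were the lowest of the 5 named gates at 7184 CPM (7118 to 7249). Macrophages in several gates had 11780 CPM and those in none 10032 CPM. By run, Tmem119/Zmynd15 macrophages ranged from 12836 over 13686 (median) to 18518 CPM in 6 runs and Thbs1/Vegfa macrophages from 5504 over 6883 to 8392 CPM in 5 runs. These ranges did not overlap. Tmem119/Zmynd15 macrophages were above Il10 macrophages in 6 of 6 runs, and Il10 macrophages were above Thbs1/Vegfa macrophages in 5 of 5. Lyve1/Cd209f macrophages could be given in 3 runs, from 10997 over 12859 to 15945 CPM, a range that overlapped those of Tmem119/Zmynd15 and of Il10 macrophages (9393 to 13540 CPM).

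The single chains followed the sum. C1qa was at 5581 CPM (5451 to 5714) in Lyve1/Cd209f, 5327 in Tmem119/Zmynd15, 4354 in Il10, 3768 in Gpnmb and 2634 CPM in Thbs1/Vegfa macrophages. In the same order of gates C1qb was at 4780, 5224, 4245, 3211 and 2953 CPM, and C1qc at 3597, 3480.5, 2881, 2279 and 1596 CPM. Lyve1/Cd209f macrophages thus had the highest C1qa and C1qc and Tmem119/Zmynd15 macrophages the highest C1qb, and that order between these gates changed with the summary: as a mean over cells, Tmem119/Zmynd15 macrophages were highest for all 3 chains, and without run 4 they were highest for C1qc as well as C1qb.

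**Figure D2:**
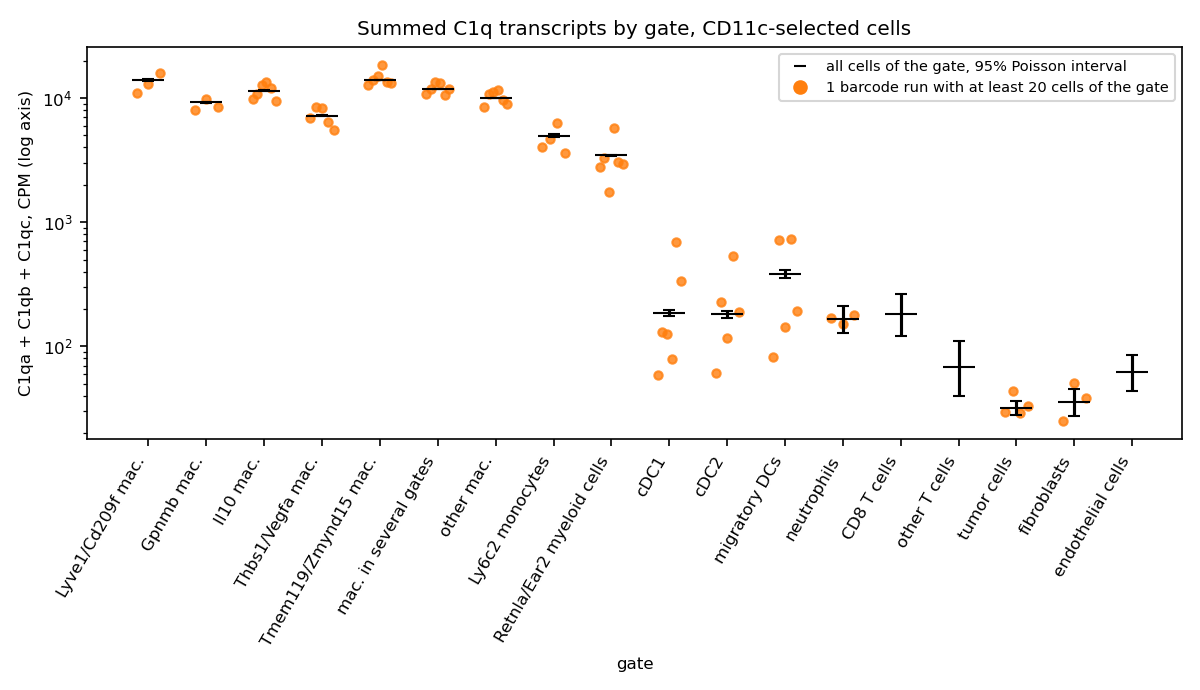
Summed C1qa, C1qb and C1qc in CPM (log axis) by gate in CD11c-selected cells. Black bars give all cells of the gate with the 95% Poisson interval and orange points give single barcode runs with at least 20 cells of the gate. Macrophage gates lie between 7184 and 14031 CPM, monocytes at 4981, Retnla/Ear2 cells at 3463, and the DC gates between 181 and 383 CPM with run values spread over about an order of magnitude.

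Ly6c2 monocytes (150 cells) had 4981 CPM of summed C1q (4872 to 5092; 4 runs from 3638 over 4385 to 6248) and Retnla/Ear2 myeloid cells (570 cells) had 3463 CPM (3431 to 3496; 6 runs from 1764 over 3001 to 5740). Thbs1/Vegfa macrophages were above monocytes in 4 of 4 runs, monocytes were above Retnla/Ear2 cells in 4 of 4, and Retnla/Ear2 cells were above DCs in 6 of 6. These intermediate levels were averages over uneven cells. Monocytes and Retnla/Ear2 cells could also pass the macrophage gate, whereas DCs that did so were left out. The 288 cells left out for passing several phagocyte gates had 6116 CPM of summed C1q. The effect of this rule on the levels was not tested. In monocytes, C1q UMIs per 10000 UMIs of a cell had a 25th percentile of 0.946, a median of 33.7 and a 75th percentile of 78.4, and 22.0% of monocytes had no C1q UMI. In Retnla/Ear2 cells the same percentiles were 1.84, 11.2 and 51.2, and the 29 cells with the most C1q (5%) held 37.1% of the gate's C1q UMIs. Tmem119/Zmynd15 macrophages were narrower, with 105, 134 and 168 per 10000 UMIs, and their 5th percentile of 63.5 was above the monocyte median.

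Detection of the chains within single cells gave the same order. When each cell was thinned to 1000 UMIs, all 3 chains were found in 90.4% of Tmem119/Zmynd15, 85.3% of Lyve1/Cd209f, 79.6% of Il10, 61.7% of Gpnmb and 54.2% of Thbs1/Vegfa macrophages. The share was 36.2% in monocytes and 24.4% in Retnla/Ear2 cells, while 37.6% and 41.8% of these cells had none of the chains. In T cells 0 of 70 thinned cells had all 3 chains and 88.6% had none. Thbs1/Vegfa macrophages included 16.4% of cells with no chain, compared with 0.303% of Tmem119/Zmynd15 macrophages.

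C1q was low in DCs and neutrophils, which were set beside the T cells of the same matrix, a cell type that should lack C1q. T cells (71 cells, median 4345 UMIs) had 107 CPM of summed C1q (78.1 to 144), with CD8 T cells at 183 CPM (121 to 266). cDC1 (487 cells, median 14895 UMIs) had 185 CPM (176 to 195), cDC2 (337 cells, median 12068 UMIs) had 181 CPM (169 to 194) and neutrophils (136 cells, median 2855 UMIs) had 166 CPM (128 to 212). Any C1q UMI was seen in 52.6% of cDC1, 53.4% of cDC2, 30.1% of neutrophils and 31.0% of T cells. After thinning to 1000 UMIs the shares were 8.23% (5.94 to 11.0), 11.9% (8.62 to 15.8), 12.3% (7.20 to 19.2) and 11.4% (5.07 to 21.3), so that the intervals of these gates overlapped that of the 70 thinned T cells, a wide one. In CPM, cDC1 and cDC2 lay above all T cells and within the interval of CD8 T cells, and neutrophils overlapped all T cells. The T cell value rested on run 2, which held 28 of its 44 UMIs. Without run 2 T cells had 68.2 CPM (39.0 to 111) and neutrophils 164 CPM (121 to 218), and these intervals did not overlap. The 14 CD8 T cells left without run 2 were too few for a level, so their comparison with cDC1 and cDC2 includes that run. Migratory DCs (186 cells, median 9959.5 UMIs) had 383 CPM (355 to 412) and a thinned share of 17.3% (12.1 to 23.5), an interval that overlapped that of T cells, although their CPM lay above that of all T cells and of CD8 T cells. A few cells carried most of the DC signal. The 25 cDC1, 17 cDC2 and 10 migratory DCs with the most C1q, 5% of each gate, held 64.3%, 51.6% and 60.8% of the gate's C1q UMIs. DC levels also differed between runs, from 62.4 CPM in run 1 to 651 CPM in run 5. The few T cells of these runs, 14 in run 1 and 4 in run 5, had 22.3 CPM (2.70 to 80.6) and 249 CPM (80.9 to 581), from 2 and 5 UMIs.

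The CD4/CD8-selected cells showed C1q in T cells moving with the macrophages of the run. Over all 18770 T cells summed C1q was 29.7 CPM (28.7 to 30.9), or 0.154 UMIs per cell, and without run 3 it was 14.2 CPM (13.4 to 15.1). Run 3, with 434 macrophages (12.8% of its cells), had 130 CPM of C1q in T cells. Run 2, with 5.29% macrophages, had 33.3 CPM, and run 1, with 0.483%, had 5.01 CPM. Runs 4, 5 and 6, with 2.35%, 2.28% and 1.39% macrophages, had 15.5, 11.4 and 12.1 CPM. The run with the most macrophages had the highest C1q in T cells and the run with the fewest had the lowest. C1qb and C1qc per C1qa UMI were 0.945 and 0.614 in T cells, against 0.784 and 0.588 in macrophages. Without run 3 C1qb per C1qa UMI was 1.09 in T cells and 0.910 in macrophages. The part of free RNA or of macrophages caught with T cells in these values was not tested.

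**Figure D3:**
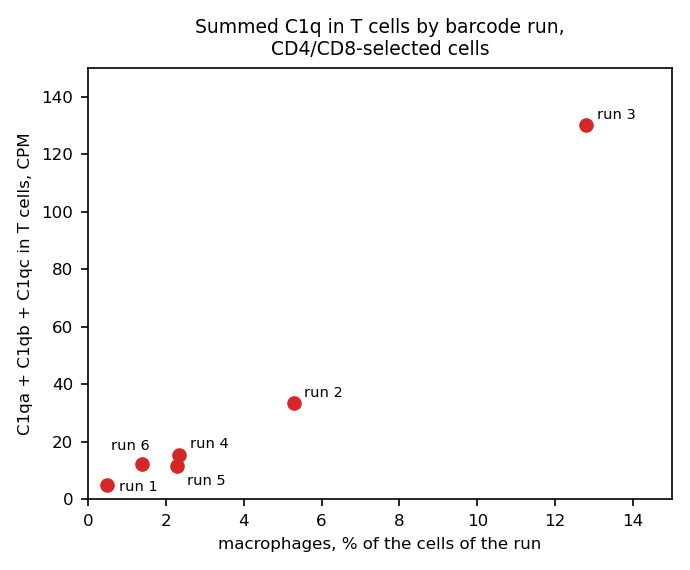
Summed C1q in T cells (CPM, vertical) against the share of macrophages among the cells of the run (percent, horizontal) for the 6 barcode runs of CD4/CD8-selected cells. Each point is 1 run. Run 3 lies at 12.8% macrophages and 130 CPM, run 1 at 0.483% and 5.01 CPM.

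The proportion of the chains to each other differed between gates, although the assembled protein holds them in equal number. Retnla/Ear2 cells had 1.42 C1qb UMIs per C1qa UMI (1.39 to 1.45; 6 runs from 1.32 to 1.85), monocytes 1.25 (1.19 to 1.31; 4 runs from 1.00 to 1.34) and Thbs1/Vegfa macrophages 1.12 (1.10 to 1.15; 5 runs from 1.07 to 1.18). Tmem119/Zmynd15 macrophages had 0.981 (0.971 to 0.991; 6 runs from 0.930 to 1.06), Il10 macrophages 0.975, Lyve1/Cd209f macrophages 0.856 (0.827 to 0.887) and Gpnmb macrophages 0.852. Among the monocyte, Retnla/Ear2 and named macrophage gates only, those with the least C1q had relatively more C1qb. These were Retnla/Ear2 cells, monocytes and Thbs1/Vegfa macrophages, whereas the Gpnmb gate, next in C1q among them, had the lowest ratio. Retnla/Ear2 cells were above Tmem119/Zmynd15 macrophages in 6 of 6 runs and above Thbs1/Vegfa macrophages in 5 of 5, and Thbs1/Vegfa macrophages were above Tmem119/Zmynd15 macrophages in 5 of 5. Monocytes were above Thbs1/Vegfa macrophages in 2 of 4 runs, so that the order of these neighbors was not stable. C1qc per C1qa UMI stayed between 0.605 and 0.662 in all these gates, with the Gpnmb gate lowest and the Il10 gate highest. In the CD4/CD8-selected cells C1qb per C1qa UMI was lower in each macrophage gate, at 0.712 in Lyve1/Cd209f, 0.725 in Gpnmb, 0.757 in Il10, 0.927 in Thbs1/Vegfa and 0.932 in Tmem119/Zmynd15 macrophages. Run 3 held 434 of the 812 macrophages of that matrix and weighed most on the Gpnmb ratio, with 150 of 164 cells. It held 10 of 32 Il10, 13 of 38 Thbs1/Vegfa, 14 of 99 Tmem119/Zmynd15 and 7 of 33 Lyve1/Cd209f macrophages. Its macrophages had 3971 CPM of C1qb, against 4806 to 6636 CPM in the other runs. Their C1qa, at 5500 CPM, was within the 5282 to 6563 CPM of the other runs. Selection and tumor stage differ together between the matrices and cannot be told apart.

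**Figure D4:**
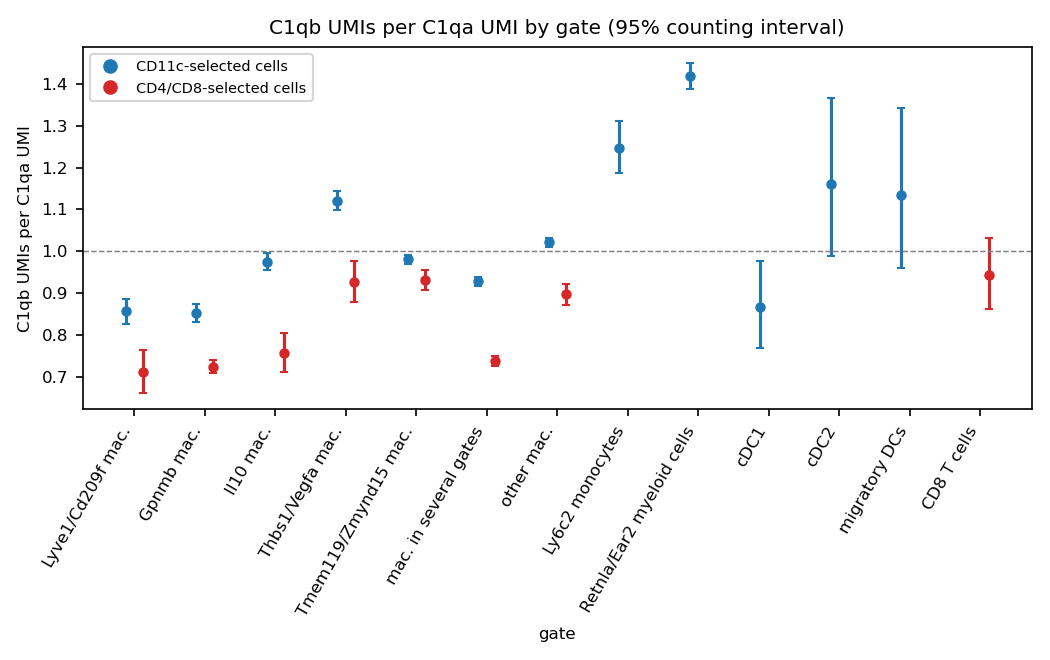
C1qb UMIs per C1qa UMI (vertical axis) by gate, with the 95% counting interval, in CD11c-selected (blue) and CD4/CD8-selected cells (red), the dashed line marking equal counts. Retnla/Ear2 cells lie at 1.42 and monocytes at 1.25, while Lyve1/Cd209f macrophages lie at 0.856 and 0.712 in the 2 matrices.

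C3, the component shared by all pathways, had its highest level in fibroblasts. Fibroblasts (114 cells) had 1829 CPM (1766 to 1893) and held 46.4% of all C3 UMIs of the CD11c-selected cells while making up a small part of them. Their 3238 C3 UMIs compared with 2515 in the 4847 macrophages. The 3 runs with enough fibroblasts had 494, 2110 and 2740 CPM, all above the highest run value of macrophages (53.4 CPM). C3 was found in 66.7% of fibroblasts and, after thinning to 1000 UMIs, in 48.0%, compared with 0 of 71 T cells. Fibroblasts were uneven, and the 6 cells with the most C3 held 37.2% of the gate's UMIs. The 86 fibroblasts of the CD4/CD8-selected cells had 1649 CPM (1582 to 1719) and 59.4% of that matrix's C3 UMIs.

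C3 in the other gates was more than an order of magnitude lower. Ly6c2 monocytes had 104 CPM (89.1 to 122), neutrophils 82.8 CPM (56.6 to 117), Gpnmb macrophages 82.8 CPM (73.3 to 93.3) and tumor cells 58.4 CPM (52.9 to 64.4). The neutrophil level was uncertain, since 7 cells held 56.2% of its 32 UMIs and it was 130 CPM (81.4 to 197) without run 6. Il10, Lyve1/Cd209f and Thbs1/Vegfa macrophages had 47.8, 46.7 and 44.4 CPM with overlapping intervals, and Tmem119/Zmynd15 macrophages had 23.8 CPM (21.3 to 26.5), or 15.7 CPM without run 6. The C3 order among macrophages was thus not that of C1q. Il10 macrophages were above Tmem119/Zmynd15 macrophages in 5 of 6 runs. Retnla/Ear2 cells were low at 6.68 CPM (5.32 to 8.28), below all macrophages together (42.3 CPM) in 6 of 6 runs. cDC1 had 0.882 CPM, and no C3 UMI was found in T cells, which allows up to 7.33 CPM. In tumor cells 28.9% of cells had a C3 UMI and the 15 cells with the most held 60.4% of them. Tumor cells had 5.51 C3 UMIs per C1qa UMI, against 0.00989 in macrophages and 124.5 in fibroblasts. The part of fibroblast RNA in the tumor cell value was not tested.

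Cfb, which encodes the protease of the alternative C3 convertase, was found in fibroblasts and in some macrophages. Fibroblasts had 63.8 CPM (52.6 to 76.7; 3 runs with 23.0, 71.3 and 93.6) and Lyve1/Cd209f macrophages had 43.4 CPM (32.6 to 56.7), with overlapping intervals. The 3 runs with at least 20 Lyve1/Cd209f macrophages had 19.8, 21.4 and 38.1 CPM, all below the level over all runs. As a mean over cells instead of a sum, the fibroblast value was 119 CPM. Il10 macrophages had 29.4 CPM (24.3 to 35.2) and monocytes 27.0 CPM (19.6 to 36.4), while Thbs1/Vegfa, Tmem119/Zmynd15 and Gpnmb macrophages had 13.2, 9.90 and 6.68 CPM. Il10 macrophages were above Tmem119/Zmynd15 macrophages in 6 of 6 runs. Because macrophages were many, they held 67.3% of Cfb UMIs and fibroblasts 8.47%. DCs had 0.561 CPM (0.242 to 1.11), and neutrophils had 0 UMIs, which allows up to 7.76 CPM.

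C6, a terminal component, was found mainly in a part of the macrophages. Lyve1/Cd209f macrophages had 189 CPM (166 to 215), with 219, 283 and 309 CPM in the 3 runs that held at least 20 of these cells. The level over all runs lay below these 3, so the cells of the other runs had less. C6 was found in 54.3% of them and, after thinning, in 15.5%. Il10 macrophages had 41.0 CPM (35.0 to 47.8; 6 runs from 16.6 over 31.8 to 83.2). Lyve1/Cd209f macrophages were above Il10 macrophages in 3 of 3 runs, and Il10 macrophages were above Tmem119/Zmynd15 macrophages in 6 of 6. Gpnmb macrophages had 2 C6 UMIs (0.607 CPM, 0.0735 to 2.19), Tmem119/Zmynd15 macrophages 0.421 CPM and Thbs1/Vegfa macrophages 1.24 CPM. Without run 2 Tmem119/Zmynd15 macrophages had 0.178 CPM and Thbs1/Vegfa macrophages 0.649 CPM. Without run 5 Gpnmb macrophages had 0 UMIs. Macrophages in several gates had 26.8 CPM and those in none 12.6 CPM, so that C6 was not limited to the cells the Lyve1/Cd209f gate caught. All macrophages together held 90.0% of the C6 UMIs of the matrix, and the Lyve1/Cd209f gate alone held 21.6% of the C6 UMIs of the matrix. DCs had 1 C6 UMI, and T cells, tumor cells, fibroblasts and neutrophils of this matrix had none. The CD4/CD8-selected cells gave 205 CPM (154 to 267) in 33 Lyve1/Cd209f macrophages and 24.6 CPM (11.8 to 45.2) in 32 Il10 macrophages (51.8 CPM, 24.9 to 95.3, without run 3), and 0 UMIs in 18770 T cells, which allows up to 0.0308 CPM.

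Cfp, which encodes properdin, the stabilizer of the alternative convertase, had a distribution of its own and was the member for which DCs and macrophages were nearly level. Retnla/Ear2 cells had 726 CPM (712 to 742; 6 runs from 686 over 731 to 787) and held 28.1% of Cfp UMIs. The run values of this gate were close together and lay above those of cDC2 in 5 of 5 runs and of Il10 macrophages in 6 of 6. Cfp was found in 98.4% of Retnla/Ear2 cells (median 19430 UMIs), 47.7% after thinning, compared with 2.82% of T cells (median 4345 UMIs) and 0 of 70 T cells after thinning. Lyve1/Cd209f macrophages had 636 CPM (593 to 682), above the 520, 540 and 614 CPM of the 3 runs with at least 20 of these cells. Il10 macrophages had 382 CPM (364 to 402) and Thbs1/Vegfa macrophages 235 CPM (223 to 247). Tmem119/Zmynd15 macrophages, high in C1q, had the least Cfp of the macrophage gates at 99.6 CPM (94.5 to 105). They were below Il10 macrophages in 6 of 6 runs and below Thbs1/Vegfa macrophages in 5 of 5.

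Cfp separated the DC gates. cDC2 had 474 CPM (454 to 495; 5 runs from 435 over 470 to 535), cDC1 83.0 CPM (76.8 to 89.6; 6 runs from 54.2 over 81.5 to 109) and migratory DCs 25.6 CPM (18.8 to 33.9), or 14.2 CPM without run 5. These ranges over runs did not overlap between cDC2 and cDC1, and cDC1 were above migratory DCs in 5 of 5 runs. Cfp UMIs per C1qa UMI were 7.43 in cDC2 and 1.11 in cDC1, against 0.0496 in macrophages and 0.118 in T cells. The ratio was 0.636 in Retnla/Ear2 cells, 0.846 in fibroblasts and 0.603 in tumor cells, closer to that of cDC1. The part of RNA from other cells in these values was not tested. Neutrophils had 142 CPM (107 to 185; 3 runs with 101, 128 and 166) and 2.29 Cfp UMIs per C1qa UMI. Plasmacytoid DCs, present in the CD4/CD8-selected cells (52 cells), had 58.6 CPM (38.6 to 85.2), or 33.7 CPM without run 2, compared with 1.75 CPM (1.50 to 2.03) in T cells of that matrix.

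The receptors C3ar1 and C5ar1 were highest in the same macrophage gates. C3ar1, the C3a receptor, was at 583 CPM (560 to 607; 6 runs from 409 over 601 to 705) in Il10 macrophages and at 578 CPM (536 to 621; 3 runs with 519, 718 and 725) in Lyve1/Cd209f macrophages, which did not differ beyond their intervals. C5ar1, the C5a receptor, was at 542 CPM (519 to 565; 6 runs from 443 over 524 to 664) and 533 CPM (494 to 576; 3 runs from 495 to 566) in these gates. Gpnmb macrophages had 310 CPM of C3ar1 and 211 of C5ar1, Tmem119/Zmynd15 macrophages 226 and 203 CPM, and Thbs1/Vegfa macrophages 221 and 278 CPM. For both genes Il10 macrophages were above Tmem119/Zmynd15 macrophages in 6 of 6 runs and above Thbs1/Vegfa macrophages in 5 of 5. Monocytes were within the range of the macrophage gates, with 227 CPM of C3ar1 (204 to 252) and 256 CPM of C5ar1 (232 to 282). Retnla/Ear2 cells were lower for both, at 100.3 and 74.2 CPM.

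Neutrophils carried 1 receptor without the other. C5ar1 was at 541 CPM (470 to 619) in neutrophils, with 471, 539 and 575 CPM in 3 runs, above all macrophages together (283 CPM) in each of these runs. C3ar1 gave 1 UMI in the 136 neutrophils, or 2.59 CPM (0.0655 to 14.4). C5ar1 was found in 67.6% of neutrophils at a median of 2855 UMIs and in 42.3% after thinning, compared with 0 of 71 T cells at a median of 4345 UMIs. Neutrophils had 8.71 C5ar1 UMIs per C1qa UMI, against 0.0662 in macrophages. In thinned macrophages 7.66% of cells had both receptors, 19.2% C3ar1 alone, 16.5% C5ar1 alone and 56.6% neither. Both were found in 18.2% of Il10 and 17.2% of Lyve1/Cd209f macrophages, and in 0 of 130 neutrophils. DCs were low for both, with 5.89 CPM of C3ar1 (4.70 to 7.29) and 2.87 CPM of C5ar1 (2.06 to 3.90). Tumor cells had 5 C3ar1 and 4 C5ar1 UMIs, and T cells of the CD11c-selected cells had none of either, which allows up to 7.33 CPM.

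**Figure D5:**
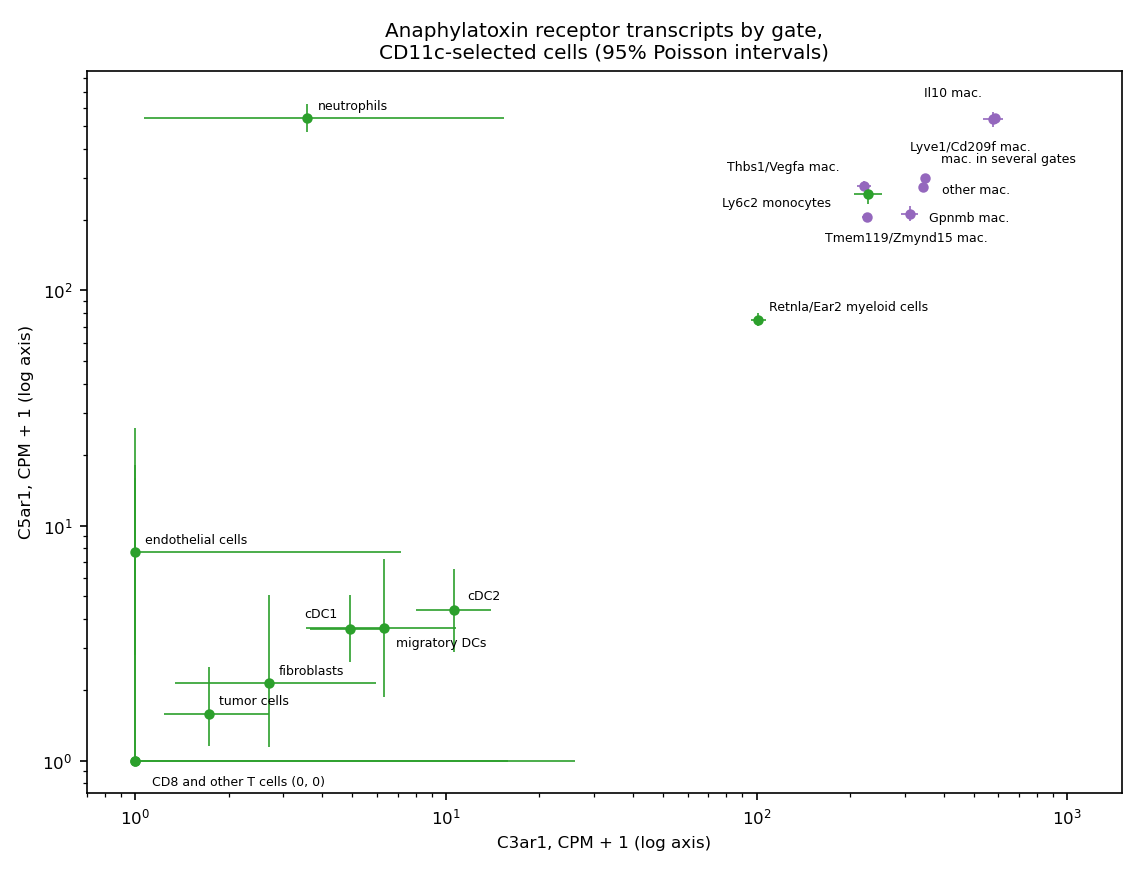
C5ar1 against C3ar1 in CD11c-selected cells, each as CPM + 1 on a log axis, with 95% Poisson intervals. Points are gates, purple for macrophages and green for other cells. Il10 and Lyve1/Cd209f macrophages lie together at the upper right, the other macrophages and monocytes below them, and neutrophils at 541 CPM of C5ar1 and 2.59 CPM of C3ar1, apart from all other gates.

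Between all macrophages and all DCs of the CD11c-selected cells, 8 of the 9 members were at least 2-fold higher in macrophages (with 1 CPM added to both levels), and 12.9% of the 12990 genes with at least 20 UMIs passed that fold in this direction. None was at least 2-fold lower, which 8.11% of genes were. Cells that passed both a DC gate and the macrophage gate were in neither group, and the effect of leaving them out was not tested. The fold was 52.6 for C1qa, 51.4 for C1qb, 54.4 for C1qc, 46.9 for C3ar1, 73.3 for C5ar1, 13.3 for C3 and 10.3 for Cfb. C6 was at 16.4 CPM in macrophages (15.4 to 17.5) and, from 1 UMI, at 0.0701 CPM in DCs (0.00177 to 0.391). Cfp was the exception, at 212 CPM (209 to 216) in macrophages and 198 CPM (190 to 205) in DCs, a fold of 1.07. The median fold over the 9 members was 46.9 and that over all genes tested was 1.07.

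Against macrophages, neutrophils were at least 2-fold lower in 6 of the 9 members, a fold that 24.1% of 12546 genes passed, and higher in 0, where 18.0% of genes were. The lower members were C1qa, C1qb, C1qc, C6, Cfb and C3ar1. C6 and Cfb rested on 0 UMIs in neutrophils, a depth that allows up to 7.76 CPM against 16.4 and 15.1 CPM in macrophages, and at that limit both would be less than 2-fold lower. C5ar1 and C3 were 1.91-fold and 1.94-fold higher in neutrophils and Cfp was at a fold of 0.672, all short of 2. C3 passed 2-fold without run 1 (2.03) and without run 6 (3.13).

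Lyve1/Cd209f and Gpnmb macrophages, which had similar numbers of cells (116 and 134), differed in 4 of the 9 members, all higher in the Lyve1/Cd209f gate, where 11.4% of 9154 genes were at least 2-fold higher and 11.9% lower. Cfb was 5.79-fold, Cfp 3.46-fold and C5ar1 2.52-fold higher, and C6 had 235 UMIs in the Lyve1/Cd209f gate and 2 in the Gpnmb gate. C3ar1 (1.86-fold) and the C1q chains (1.48-fold to 1.58-fold) were higher by less, and C3 was lower at a fold of 0.568. C3 passed 2-fold lower without run 2, 3 or 5 (0.470, 0.425 and 0.471), and C3ar1 passed 2-fold higher without run 5 (2.16). The median over the 9 members was 1.86 and over all genes tested 1.00. In the CD4/CD8-selected cells (33 and 164 cells) 8 members could be compared and 3 were at least 2-fold higher, with backgrounds of 14.0% higher and 17.7% lower. They were C6 (70.5-fold), Cfp (2.28-fold) and C5ar1 (2.01-fold). In that matrix 150 of the 164 Gpnmb macrophages came from run 3, so that these folds set Lyve1/Cd209f macrophages of 6 runs against Gpnmb macrophages of nearly 1 run, and the 14 left without run 3 are too few for a level. Cfp was short of 2-fold without run 2 (1.82), and C5ar1 without run 4 or run 5 (1.93 each). In the CD11c-selected cells 59 of the 134 Gpnmb macrophages came from run 5 and 16 of the 116 Lyve1/Cd209f macrophages did.

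The 812 macrophages caught in the CD4/CD8 selection had the same members, and 434 of them came from run 3. Summed C1q was 13540 CPM (13483 to 13597; 6 runs from 12663 over 15506 to 16585), C3ar1 411, C5ar1 312, Cfp 323, C3 40.2 and C6 10.7 CPM. Set against the CD11c-selected macrophages, 0 of 9 members were at least 2-fold higher, where 2.04% of 12841 genes were, and 1 was lower, where 3.05% were. That member was Cfb, at 4.10 CPM (3.17 to 5.21) against 15.1 CPM (14.1 to 16.1), a fold of 0.317. That call rested on run 3, which had 0.895 CPM of Cfb against 7.52 to 18.8 CPM in the other 5 runs. Without run 3 Cfb was 11.4 CPM (8.59 to 14.8), a fold of 0.769, and 0 members passed 2-fold in either direction. The other folds ran from 0.671 for C6 to 1.52 for Cfp, with a median over all genes of 0.904, and both ends also rested on run 3. Run 3 had 2.59 CPM of C6 against 19.1 to 46.2 CPM in the other runs, and without it C6 was at 29.0 CPM, a fold of 1.72 and thus higher in the CD4/CD8-selected cells. Cfp was 372 CPM in run 3 and 34.3 to 275 CPM in the others, and without run 3 its fold was 0.999. The makeup of the macrophages also differed, since 164 of 812 were in the Gpnmb gate in the CD4/CD8-selected cells and 134 of 4847 in the CD11c-selected cells. Within the Lyve1/Cd209f gate Cfb was 41.0 CPM (20.4 to 73.3) in the CD4/CD8-selected cells (26.8 CPM without run 2) and 43.4 CPM in the CD11c-selected cells.

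The order of the 5 named macrophage gates in summed C1q was the same in both matrices over all runs. Without run 3 Il10 macrophages (11752 CPM) were below Thbs1/Vegfa macrophages (12058 CPM) in the CD4/CD8-selected cells, with overlapping intervals. In the CD4/CD8-selected cells summed C1q was 17655 CPM in Tmem119/Zmynd15, 15240 in Lyve1/Cd209f, 13637 in Il10, 12300 in Gpnmb and 11401 CPM in Thbs1/Vegfa macrophages. Cfp was 760 CPM in Lyve1/Cd209f, 474 in Il10, 332 in Gpnmb, 304 in Thbs1/Vegfa and 84.2 CPM in Tmem119/Zmynd15 macrophages. As in the CD11c-selected cells, Tmem119/Zmynd15 macrophages had the highest C1q and the lowest Cfp of the 5 named gates. C5ar1 was 581 CPM in Lyve1/Cd209f, 543 in Il10 and 240 CPM in Tmem119/Zmynd15 macrophages. C3ar1 differed from the first matrix in the Gpnmb gate, where it reached 460 CPM (440 to 481), close to 540 CPM (456 to 635) in Lyve1/Cd209f and 484 CPM (419 to 557) in Il10 macrophages. This Gpnmb level is in effect that of run 3, where the 150 cells had 469 CPM of C3ar1, and its spread over runs is not known. C3 was 102 CPM (79.4 to 130) in 38 Thbs1/Vegfa macrophages, with 62.7% of its 67 UMIs in 2 cells, and 40.7 CPM (26.3 to 60.1) in the other 36. It was 42.0 CPM in Gpnmb and 14.8 CPM (5.41 to 32.1) in Il10 macrophages. Without run 3 the Il10 level was 25.9 CPM, from 5 UMIs, and without run 4 it was 8.60 CPM, from 3 UMIs.

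A list of 46 other complement genes placed the members in their pathway, and 45 of them were rows of the matrices, C4a being the exception. In each matrix 24 of the 45 reached 10 CPM in at least 1 gate, a level that 38.3% of all 31053 genes reached in the CD11c-selected and 37.9% in the CD4/CD8-selected cells. Among recognition molecules 2 of 7 did so in the CD11c-selected cells. Fcna, which encodes ficolin A, a lectin pathway sensor, was at 344 CPM (312 to 379) in Lyve1/Cd209f and 70.9 CPM in Il10 macrophages (42.7 CPM without run 4), and Colec12, a scavenger collectin, was at 132 CPM in fibroblasts. Fcna was again highest in Lyve1/Cd209f macrophages in the CD4/CD8-selected cells, at 462 CPM (384 to 551). The mannose-binding lectins Mbl1 and Mbl2 had 0 UMIs in every gate of either matrix.

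The proteases and the C2 and C4 components, 6 of 10 at 10 CPM or more, had their highest level in fibroblasts in the CD11c-selected cells, except for C1rl. C1s1 and C1ra, the proteases that pair with C1q, were at 937 CPM (892 to 983) and 353 CPM (326 to 382) in fibroblasts and at 0.353 and 4.72 CPM in macrophages. The gate with the next highest C1ra after fibroblasts was Lyve1/Cd209f macrophages, with 16.1 CPM, and 14.9 CPM in the CD4/CD8-selected cells (8.70 CPM from 2 UMIs without run 3). C4b was at 1248 CPM (1196 to 1301) in fibroblasts and 877 CPM in Lyve1/Cd209f macrophages. In the CD4/CD8-selected cells that order was turned, with 1013 CPM (896 to 1141) in Lyve1/Cd209f macrophages and 847 CPM in fibroblasts, and without run 3 the levels were 984 and 1053 CPM with overlapping intervals. C2 was at 88.1 CPM and Masp1, a lectin pathway protease, at 52.0 CPM in fibroblasts. C1rl reached 10.4 CPM in neutrophils on 4 UMIs. Because macrophages were many, they held 62.9% of C4b and 63.4% of C1rl UMIs of the CD11c-selected cells, and fibroblasts 16.3% and 2.71%. For C1s1 and C1ra the fibroblast shares were 92.2% and 59.4%, and the macrophage shares 1.17% and 26.7%. Cfd, which encodes factor D, the protease that activates factor B, stayed under 10 CPM, with its highest level of 7.46 CPM in Il10 macrophages. Of the other terminal components 1 of 6 passed, Hc, which encodes C5, at 28.2 CPM in fibroblasts. C7, C8a and C8b had 0 UMIs in every gate of the CD11c-selected cells, in which C6 was found in macrophages.

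Of the inhibitors 7 of 13 passed. Among them, Serping1, the C1 inhibitor, was at 1329 CPM (1276 to 1384) in fibroblasts, Vtn at 23.2 CPM (11.9 CPM without run 6) and the decay accelerator Cd55 at 143 CPM in fibroblasts, Clu at 1792 CPM (1760 to 1823) and Cd59a at 44.3 CPM in tumor cells, and Cr1l at 116 CPM in neutrophils. Of the receptors 8 of 9 passed. C5ar2, the other C5a receptor, was at 95.8 CPM (67.4 to 132) in neutrophils and 46.7 CPM in Lyve1/Cd209f macrophages. Itgam and Itgb2, the chains of complement receptor 3, had 468 CPM in neutrophils and 539 CPM in Gpnmb macrophages as their highest levels, and Itgax had 419 CPM in neutrophils and 398 CPM in Tmem119/Zmynd15 macrophages. Itgax encodes CD11c, the target of the beads, so the selection bears on these levels. In the CD4/CD8-selected cells its highest level was 352 CPM, in Tmem119/Zmynd15 macrophages. Vsig4, a receptor for C3 fragments, was at 25.7 CPM (17.6 to 36.3) in Lyve1/Cd209f macrophages of the CD11c-selected cells (16.5 CPM without run 1) and at 114 CPM (104 to 125) in Gpnmb macrophages of the CD4/CD8-selected cells, nearly all from run 3. Cd93 was at 1447 CPM in endothelial cells, Lair1 at 225 CPM and C1qbp at 94.4 CPM in Tmem119/Zmynd15 macrophages.

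The genes whose level followed each member most closely over the 18 gates of the CD11c-selected cells were ranked among 10051 genes that reached 20 CPM, by Pearson's r of log2(CPM + 1). The gates share libraries and differ in depth, and the macrophage gates resemble each other, so r is a description with no p. For C1qa these genes were C1qc (0.998), C1qb (0.996), Ms4a7 (0.986), Abhd12 (0.974) and Trem2 (0.971). Trem2 was highest in Gpnmb macrophages (1595 CPM), unlike the C1q chains. C6 was followed by Pla2g2d (0.974), Chp2 (0.934), Fcna (0.927), Ccl8 (0.884) and Vsig4 (0.877), each with its highest level in Lyve1/Cd209f macrophages. Cfb was followed by the chemokines Ccl7 (0.918) and Ccl2 (0.914), then Ang, Lpar1 and Selenbp1 (0.911 to 0.903). Ccl7 and Ccl2 were highest in Lyve1/Cd209f macrophages, at 3947 and 3173 CPM.

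C3 had looser partners, with Fam3a at 0.895 followed by Osbpl1a, Tmem150a, Esr1 and Cxcl14 (0.866), 4 of the 5 highest in fibroblasts. Cfp was followed by Cysltr1 (0.953), Cass4, Wfdc17, Lrrc25 and Clec4a2 (0.942), and Cass4 and Clec4a2 were highest in Retnla/Ear2 cells as Cfp was. C3ar1 was followed by Slc37a2 (0.979), Kcnk13 (0.978), the chemokine Ccl12 (0.974), C1qb (0.969) and C1qc (0.969). C5ar1 was followed by C5ar2 (0.965), Dok3 (0.964), Adgre1 (0.958), Il1a (0.949) and Clec4d (0.948). Of these, C5ar2, Dok3 and Clec4d were highest in neutrophils, and the 5 genes closest to C3ar1 were each highest in a macrophage gate. Adgre1 is itself a marker of the macrophage gate.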

How the data were processed

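Cells from digested tumors were bead-selected, frozen, thawed and sequenced on the 10x platform, and the authors deposited 2 matrices of whole-number UMI counts per gene and cell, made with Cell Ranger 3.0.2 against mm10 according to the submitters' processing notes. Barcodes carried no sample name, so the genotype test that had been planned was not run, and each matrix was treated as 1 sample. Cells with at least 200 detected genes were gated on fixed marker UMIs, cells in several lineages (103 and 717) or several phagocyte gates (288 and 6) were left out, and no doublet caller was run. Of CD11c-selected C1q UMIs, 7.59% were in ungated cells.

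Levels were summed UMIs per 1000000 (CPM) in gates of at least 20 cells, with exact Poisson intervals, and shares had exact Clopper-Pearson intervals, both at 95% and for counting error only. For a count of 0 the limit is 3 UMIs. Shares were repeated after thinning cells to 1000 UMIs. Folds were between 2 gates, with 1 CPM added, over genes with at least 20 UMIs on both sides together. Text names the 9 members, listed pathway genes at 10 CPM or more, and the 5 genes closest to a member, and 6 listed genes below 10 CPM that were chosen after their values were seen. A pathway gene and a gate marker are not reported here. The members, lists and gates were chosen with earlier results of these data known. Symbols matched GENCODE M21 for 30431 of 31053 genes (98.0%). Gates and intervals were tested on simulated data. Python 3.11.15, numpy 2.4.6, scipy 1.17.1, pandas 2.3.3 and matplotlib 3.10.9 were used.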

Additional observations from a re-analysis of the deposited data

How the results depend on the processing

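No paired analysis was possible because the barcodes in the matrices name no replicate, and for that reason the planned genotype fits (DESeq2 size factors, no filter on low counts, each replicate left out, replicate block) were not run. Values are CPM in the CD11c-selected cells. Averaging over cells gave 5173 for C1qa, 5089 for C1qb, 3310 for C1qc, 1913 for C3, 218 for C6, 119 for Cfb, 708 for Cfp and 10658 for summed C1q in macrophages, in place of 5581, 5224, 3597, 1829, 189, 63.8, 726 and 11189 in the gates with the highest levels. Doubling the marker UMIs a gate needs gave 5435 for C1qb, 3712 for C1qc and 11478 for summed C1q. Without cells of over 10 percent mitochondrial UMIs C1qa was 5718, C1qc 3709 and summed C1q 11304. Without the 5% of cells with the most UMIs C1qa was 5423, C1qb 5151, C1qc 3447, C3 1951, C3ar1 616 and summed C1q 11053. In 2 alternatives chosen after seeing the data, counting cells in every macrophage gate they pass gave 5312 for C1qa, 5052 for C1qb, 531 for C3ar1 and 479 for C5ar1, and leaving out macrophages in several or no gates gave 11631 for summed C1q. Leaving out each barcode run in turn gave 5290 to 5732 for C1qa, 5048 to 5422 for C1qb, 3291 to 3696 for C1qc, 1446 to 2059 for C3, 161 to 237 for C6, 51.3 to 70.9 for Cfb, 712 to 738 for Cfp, 546 to 614 for C3ar1, 519 to 555 for C5ar1 and 10921 to 11470 for summed C1q. The gate with the highest level stayed the same in 12 of 12 alternatives for C1qb and C6, 11 of 11 for C3, Cfb and Cfp, 11 of 12 for C1qa, 10 of 12 for C1qc, 8 of 12 for C3ar1 and 4 of 12 for C5ar1, where neutrophils and Il10 macrophages were nearly level. The 2-fold comparisons and the levels in all gates were also recomputed without each run, and levels without the 5% of cells highest in a gene, alternatives chosen after seeing the data. Without run 3 of the CD4/CD8-selected cells no member differed 2-fold between the macrophages of the matrices, and 8 members were at least 2-fold higher in macrophages than DCs whichever run was left out. C1qa, C1qb, C1qc and C3ar1 were likewise at least 2-fold lower in neutrophils than macrophages, while for C6 and Cfb, at 0 UMIs in neutrophils, the folds of 0.0500 to 0.0711 and 0.0557 to 0.0671 say nothing about stability.

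The numbers of cells limit the smaller gates, such as 27 CD8 T cells in the CD11c-selected and 32 Il10 macrophages in the CD4/CD8-selected cells. C6 and Cfb in neutrophils were not detectable at a depth that allows up to 7.76 CPM. Gates rest on detected markers, so cells with few UMIs are more often ungated, and the 4000 ungated CD11c-selected cells had a median of 2080 UMIs.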
